A study of Homo sapiens with 6 samples.

Results

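The genes described here build, lengthen, desaturate, activate and burn fatty acids in cultured NCI-H1299, a lung cancer line that the labels call lung adenocarcinoma. They comprise 39 genes named by function, from the citrate-splitting enzyme ACLY to the isomerase ECI2, and all 39 were among the 15243 genes of the authors' deposited table. The series holds 6 Ribo-seq samples, in which the mRNA stretches covered by ribosomes are sequenced: 3 labelled shControl and 3 labelled shALDH18A1, all of the same line grown in serum-supplemented medium. The second group carries a short hairpin RNA against ALDH18A1, whose product P5CS acts in proline synthesis, and the control is named puro in the series' design text. The number of hairpins or clones behind a group is not given in the sources used here.

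In mammalian cells, fatty acid synthesis starts in the cytosol, where citrate or acetate is turned into acetyl-CoA, carboxylated to malonyl-CoA and assembled into palmitate. Enzymes embedded in the membrane of the endoplasmic reticulum (ER) then lengthen the chain in a cycle of condensation, reduction, dehydration and reduction, and desaturases insert double bonds. For breakdown, acyl-CoA synthetases activate the chain, the carnitine shuttle carries it into mitochondria, and a spiral of dehydrogenation, hydration, dehydrogenation and thiolysis removes acetyl-CoA. Tumour cells are known to rely on new fatty acids for membranes, and many of the synthetic genes are targets of the transcription factor SREBP, made from SREBF1.

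The values came from the authors' own finished comparison, which lists a mean normalized count per gene beside a log fold change, the standard error (SE) of that change, a p-value and an adjusted p. The deposited table holds no value per sample, so the spread between replicates is seen only through the SE, and the depth of each library is unknown. The deposited table bears the label DTEG, which may stand for differential translation efficiency genes. Beyond this label, the sources used here state neither the reference group nor whether footprints alone or footprints over RNA were compared. Higher and lower therefore give the sign in the authors' deposited table and say nothing of which group was higher, and base 2 of the log was taken from the column layout. A gene was called at an adjusted p under 0.05 (Benjamini-Hochberg over the whole table), and ± gives the SE. The targeted gene ALDH18A1 was not called in the authors' deposited table (−0.19 ± 0.12 on the log2 scale, adjusted p = 0.173), so it does not settle the direction. The epithelial keratin genes KRT8 and KRT18 had mean normalized counts of 6396 and 6869 in the authors' deposited table, whereas a further keratin gene, KRT7, had 5.32 and the lung lineage gene NKX2-1 had 3.24. The lung markers NAPSA, SFTPB and SFTPC were sought and are not listed in the authors' deposited table.

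Of the 39 fatty acid genes, 25 were called higher, 7 lower and 7 were not called in the authors' deposited table. Over all 15243 genes the called share was 28.9% higher and 29.4% lower, 58.4% together. The authors' own marks match an unadjusted p under 0.05 together with a difference beyond 1 on the log2 scale. They put 14 of the 39 up (15.2% of all genes) and 1 down (9.24% of all genes). The median log2 fold change was 0.61 for the fatty acid genes and 0.02 for all genes, and it was 0.34 over the 10 fatty acid genes whose span overlaps no other annotated gene. Among the members, the counts differed with the place assigned to the enzyme in the cell. Of 17 genes whose products sit in the ER membrane, 16 were higher and 1 was not called, with a median of 1.38. Of 10 genes for enzymes inside mitochondria, 3 were higher, 3 lower and 4 not called, with a median of −0.24. Outside the members, 18 further genes of the carnitine shuttle and mitochondrial oxidation had 10 higher and 3 lower, with a median of 0.41. The genes share their libraries, and their places were assigned with earlier results of these data known. The difference between the groups was not tested. In the plot of members by role, the desaturase and elongation blocks lie to the right of 0 and the oxidation blocks scatter around it.

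**Figure D1:**
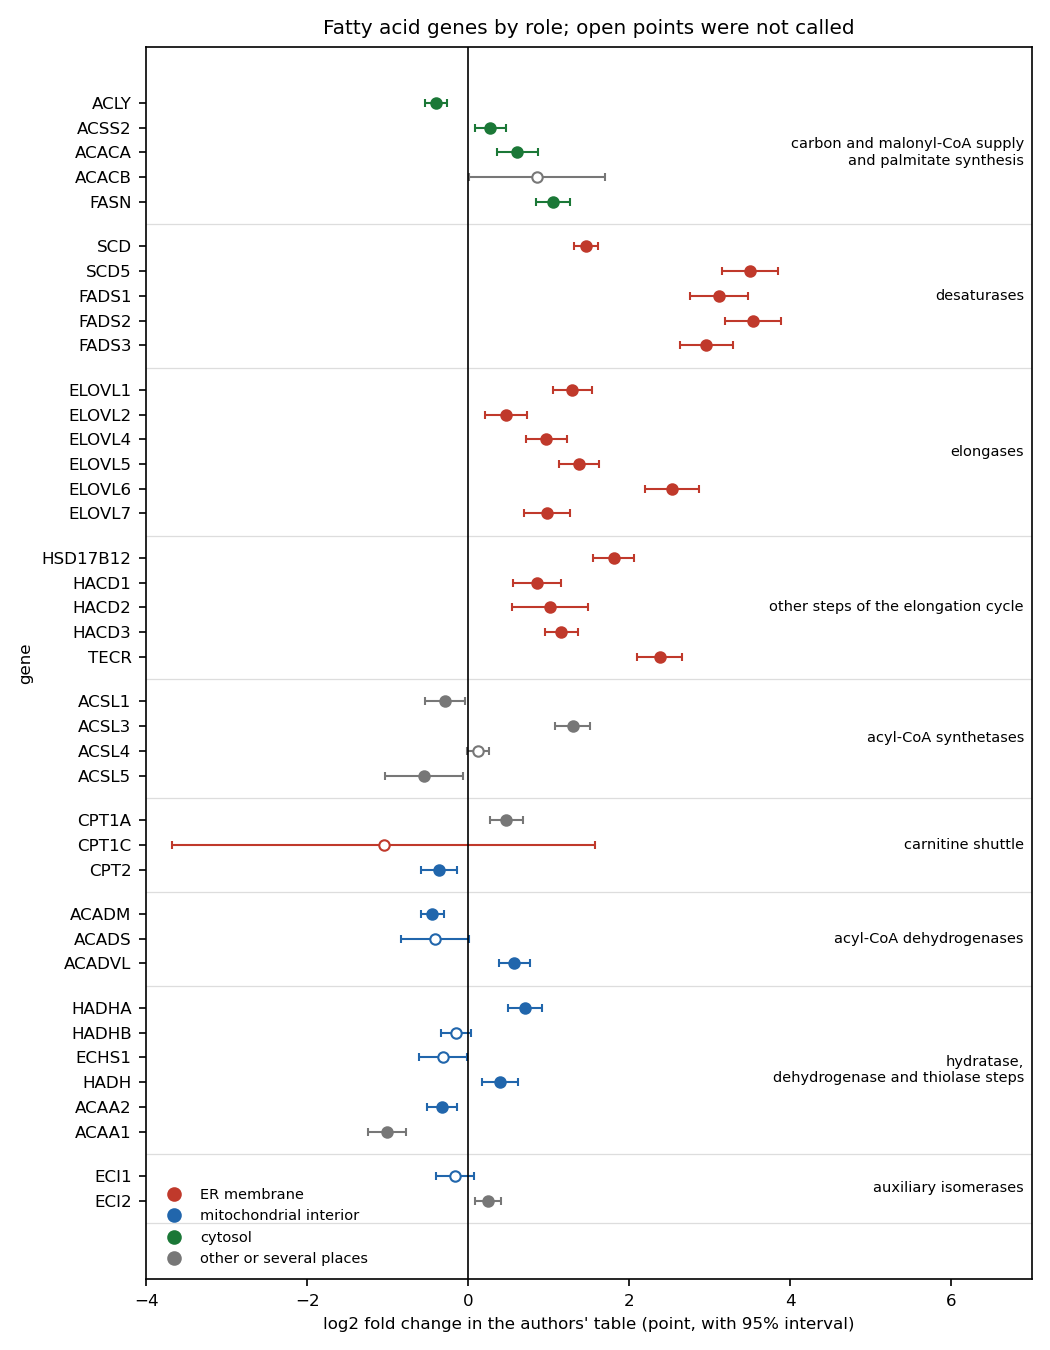
Log2 fold change of each of the 39 fatty acid genes in the authors' deposited table (horizontal axis, point with 95% interval), in blocks by role, with colour giving the place of the enzyme and open points the genes not called. All 16 desaturase and elongation-cycle genes lie above 0, from 0.47 for ELOVL2 to 3.54 for FADS2, while the genes for enzymes inside mitochondria lie between −0.45 and 0.71.

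The first steps of synthesis did not go one way. ACLY, which splits citrate into acetyl-CoA and oxaloacetate, was lower at −0.40 ± 0.07 (adjusted p = 6.90e-08), a 1.32-fold difference, in the authors' deposited table. ACSS2, which makes acetyl-CoA from acetate instead, was higher at 0.28 ± 0.10 (adjusted p = 0.0122) in the authors' deposited table. The 95% intervals of this pair, −0.54 to −0.26 and 0.08 to 0.47, lie on opposite sides of 0. ACACA, the cytosolic acetyl-CoA carboxylase that makes malonyl-CoA, was higher at 0.61 ± 0.13 (adjusted p = 6.01e-06) in the authors' deposited table. Its paralogue ACACB, whose malonyl-CoA restrains the carnitine shuttle at the mitochondrial surface, was not called at 0.86 ± 0.43, with a mean normalized count of only 15.3 in the authors' deposited table. FASN, the multi-domain synthase that assembles palmitate, was higher at 1.05 ± 0.11 (adjusted p = 3.38e-21), a 2.07-fold difference, in the authors' deposited table. Of the 5 genes at this stage, 3 were thus higher, and ACLY alone was lower.

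The desaturases had the highest median of the roles, 3.11, although SCD itself lay below ELOVL6, TECR and HSD17B12. SCD, which makes oleate from stearate, had a mean normalized count of 18920 in the authors' deposited table and was higher at 1.46 ± 0.08 (adjusted p = 1.61e-75). Its paralogue SCD5 was higher at 3.50 ± 0.18, an 11.3-fold difference (adjusted p = 5.70e-84), with a mean normalized count of 167.1 in the authors' deposited table. The intervals of the paralogues, 1.31 to 1.62 for SCD and 3.15 to 3.85 for SCD5, did not overlap. FADS1 and FADS2, the front-end desaturases of polyunsaturated fatty acids, were at 3.11 ± 0.18 (adjusted p = 6.72e-64) and 3.54 ± 0.18 (adjusted p = 1.78e-86) in the authors' deposited table. FADS3, a related desaturase known to act on sphingoid bases, was at 2.96 ± 0.17 (adjusted p = 4.68e-66) in the authors' deposited table. The intervals of FADS1 (2.76 to 3.47), FADS2 (3.19 to 3.89) and FADS3 (2.62 to 3.29) overlapped one another. Counted from the highest signed fold change, FADS2 held rank 97, SCD5 rank 108, FADS1 rank 177 and FADS3 rank 229 of the 15243 genes in the authors' deposited table.

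The FADS genes are neighbours on chromosome 11 in RefSeq's annotation of GRCh38.p14, FADS1 from 61799627 to 61817003, FADS2 from 61816203 to 61867354 and FADS3 from 61873526 to 61892224. The spans of FADS1 and FADS2, which run on opposite strands, overlap by 801 bases, and 6171 bases separate FADS2 from FADS3. How far reads in the overlap are shared between them depends on the counting's use of strand, which is not given in the sources used here. SCD lies on chromosome 10 (100347233 to 100364826) and SCD5 on chromosome 4 (82629539 to 82798796).

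The 250 bases before the annotated start of SCD, SCD5 and FADS1 are shown as examples of desaturases at separate loci. Whether their letters bear on the fold changes was not tested. Sequences are RefSeq's, in build GRCh38.p14, 5′ to 3′ on the gene's strand, which is plus for SCD (chr10:100346983-100347232), minus for SCD5 (chr4:82798797-82799046) and minus for FADS1 (chr11:61817004-61817253). Capitals mark matches on either strand to the GC box GGGCGG, the letters bound by Sp1, or to the CCAAT box, the letters bound by NF-Y.
SCD: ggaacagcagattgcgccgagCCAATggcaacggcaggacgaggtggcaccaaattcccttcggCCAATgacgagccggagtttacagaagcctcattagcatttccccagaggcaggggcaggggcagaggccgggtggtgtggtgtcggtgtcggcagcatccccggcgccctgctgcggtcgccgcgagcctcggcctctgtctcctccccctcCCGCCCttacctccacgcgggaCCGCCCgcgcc
SCD5: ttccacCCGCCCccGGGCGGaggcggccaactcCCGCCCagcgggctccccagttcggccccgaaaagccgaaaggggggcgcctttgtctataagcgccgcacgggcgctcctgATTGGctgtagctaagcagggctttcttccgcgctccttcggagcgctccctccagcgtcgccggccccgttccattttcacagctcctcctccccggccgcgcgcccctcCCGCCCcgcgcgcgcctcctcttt
FADS1: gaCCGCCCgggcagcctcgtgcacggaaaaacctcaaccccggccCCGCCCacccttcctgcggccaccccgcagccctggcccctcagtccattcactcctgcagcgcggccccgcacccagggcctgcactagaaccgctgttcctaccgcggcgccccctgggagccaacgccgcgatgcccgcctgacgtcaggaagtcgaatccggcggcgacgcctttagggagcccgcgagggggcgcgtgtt
SCD holds 2 GC boxes and 2 CCAAT boxes, SCD5 holds 4 and 1, and FADS1 holds 2 and 0.

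Windows of this kind were at hand for 36 of the 39 genes. None was at hand for FASN, HSD17B12 and ACAA1, which were therefore not searched. Of the 36, 14 have several windows for different transcript starts, and a gene was counted where any of its windows matched. The GC box was present before 32 of these 36 genes, against 72.1% of 11961 measured genes with a window. The CCAAT box was present before 16 of the 36, against 41.6% of measured genes. It was found before 9 of 16 ER membrane genes and before 1 of 10 genes for enzymes inside mitochondria, where HADH was the only one. The sterol regulatory form TCACNCCAC, with N any base, was found before 1 of the 36, ACSL1, in 1 of its 5 windows, against 1.17% of measured genes. The E-box CACGTG was found before ELOVL4 and ELOVL5 only, 2 of the 36, against 11% of measured genes. These are matches of letters in a short window, on either strand, and a GC box can overlap another GC box.

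All 6 member elongases, which carry out the condensation that sets the chain length, were higher. ELOVL6, which lengthens palmitate to stearate, led them at 2.53 ± 0.17 (adjusted p = 3.27e-47), a 5.77-fold difference, in the authors' deposited table. ELOVL5, which takes polyunsaturated chains, followed at 1.38 ± 0.12 (adjusted p = 3.24e-27), and ELOVL1, which makes very long saturated chains, at 1.29 ± 0.12 (adjusted p = 3.65e-25) in the authors' deposited table. ELOVL7 (0.98 ± 0.15, adjusted p = 1.21e-10) and ELOVL4 (0.97 ± 0.13, adjusted p = 6.98e-13), the latter known for the very long chains of retina and skin, were close to each other in the authors' deposited table. ELOVL2, which lengthens the longer polyunsaturated chains, was lowest of the family at 0.47 ± 0.13 (adjusted p = 0.00113) in the authors' deposited table. The interval of ELOVL6, 2.19 to 2.87, lay above those of the other 5 members of the family, and that of ELOVL2, 0.21 to 0.73, overlapped only those of ELOVL4 and ELOVL7. A further elongase outside the members, ELOVL3, had 2.97 ± 0.67 (adjusted p = 2.55e-05) and a mean normalized count of 7.59 in the authors' deposited table. Its interval, 1.67 to 4.28, spans that of ELOVL6.

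The partners of the elongases in the cycle were higher as well, all 5 of them. HSD17B12, the ketoacyl-CoA reductase of the cycle, was at 1.80 ± 0.13 (adjusted p = 1.61e-41) in the authors' deposited table. The dehydratases HACD1 (0.85 ± 0.15), HACD2 (1.01 ± 0.24) and HACD3 (1.15 ± 0.11) had adjusted p of 6.37e-08, 7.88e-05 and 1.19e-26 in the authors' deposited table, and their intervals overlapped. TECR, the enoyl reductase that closes the cycle, was at 2.38 ± 0.14 (adjusted p = 1.22e-59), a 5.19-fold difference, in the authors' deposited table. Among these steps the reductases thus had larger values than the dehydratases, with intervals of 1.55 to 2.06 for HSD17B12 and 2.09 to 2.66 for TECR against upper bounds of 1.15, 1.48 and 1.36 for HACD1, HACD2 and HACD3. The annotated span of TECR overlaps that of the chaperone gene DNAJB1 by 32666 bases, and DNAJB1 itself was not called in the authors' deposited table (0.0031 ± 0.10, adjusted p = 0.983).

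The ER membrane genes were set against genes of like abundance and against other membrane proteins, as a description. Each gene was ranked by fold change among the genes of its own abundance bin, of 10 equal bins by mean count. The 17 ER membrane genes lay between percentile 20.7 (CPT1C, which was not called) and percentile 99.9 (SCD5), the next lowest being ELOVL2 at 76.2, with 10 of the 17 above the 90th percentile. The genes for enzymes inside mitochondria lay between percentiles 26.4 and 81.6. Genes named TMEM, a set of transmembrane proteins chosen after the data were seen, were higher in 57.4% of 188, with a median of 0.63. Solute carrier genes named SLC, chosen likewise, were higher in 49.5% of 277, with a median of 0.59. Both families of membrane proteins thus lay above the 28.9% of all genes. They were not matched to the ER membrane fatty acid genes for abundance. At or above the median mean count lay 87 of the 188 TMEM and 126 of the 277 SLC genes, against 16 of the 17 ER membrane genes. Median SEs were 0.21 and 0.19 against 0.15, so the shares called are not on a like footing. Whether the ER membrane fatty acid genes, 94.1% of them higher, differ from these families was not tested.

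**Figure D2:**
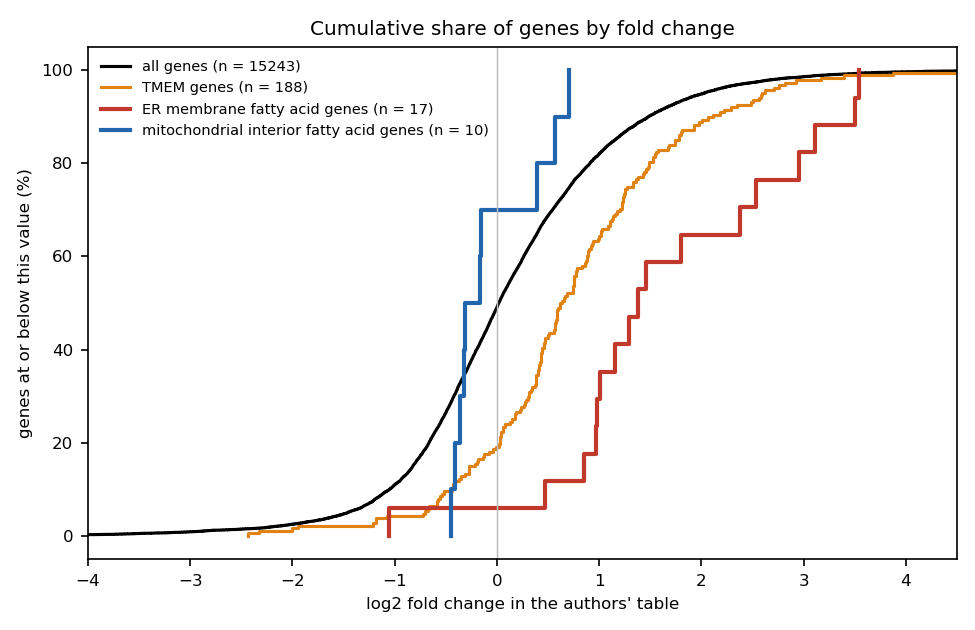
Cumulative share of genes (vertical axis, percent) at or below each log2 fold change in the authors' deposited table (horizontal axis) for all 15243 genes, 188 TMEM genes, 17 ER membrane fatty acid genes and 10 genes for fatty acid enzymes inside mitochondria. The ER membrane curve lies to the right of the TMEM curve over most of its length, and the curve for enzymes inside mitochondria ends at 0.71.

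The acyl-CoA synthetases, which activate long-chain fatty acids for either storage or oxidation, went different ways. ACSL3, found on the ER and on lipid droplets, was higher at 1.30 ± 0.11 (adjusted p = 3.72e-29) in the authors' deposited table. ACSL4, which prefers arachidonate, was not called at 0.12 ± 0.07 (adjusted p = 0.131), and its interval in the authors' deposited table, −0.02 to 0.25, allows only a small difference. ACSL1 (−0.29 ± 0.13, adjusted p = 0.0424) and ACSL5 (−0.55 ± 0.25, adjusted p = 0.0431) were lower in the authors' deposited table. Both lay near the threshold, and at an adjusted p under 0.01 neither was called. ACSL5 had a mean normalized count of 35.6 in the authors' deposited table, and its span overlaps that of ZDHHC6 by 3965 bases, which was higher there (0.92 ± 0.18).

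In the carnitine shuttle, CPT1A and CPT2 went opposite ways. CPT1A, the rate-limiting enzyme on the outer mitochondrial membrane, was higher at 0.47 ± 0.11 (adjusted p = 2.66e-05) in the authors' deposited table. CPT2, which releases the acyl-CoA inside, was lower at −0.36 ± 0.11 (adjusted p = 0.00286) in the authors' deposited table. CPT1C, a form of the ER best known from neurons, was the ER membrane gene that was not called, at −1.05 ± 1.34 with a mean normalized count of 1.04 in the authors' deposited table. Its interval, −3.68 to 1.58, is too wide at this count to tell whether it differed in either direction.

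The acyl-CoA dehydrogenases, which open each round of oxidation, differed among themselves. ACADVL, for very long chains, was higher at 0.57 ± 0.10 (adjusted p = 3.76e-08) in the authors' deposited table. ACADM, for medium chains, was lower at −0.45 ± 0.07 (adjusted p = 7.56e-09), and ACADS, for short chains, was not called at −0.41 ± 0.22 (adjusted p = 0.0934) in the authors' deposited table. The intervals of ACADVL (0.38 to 0.76) and ACADM (−0.59 to −0.30) lay on opposite sides of 0. The span of ACADVL overlaps that of DLG4 by 2926 bases, and DLG4 was higher in the authors' deposited table (1.61 ± 0.31), where its mean normalized count was 37.1 and that of ACADVL 1137.

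HADHA and HADHB make the alpha and beta subunits of one enzyme complex, the mitochondrial trifunctional protein, which carries out the later steps for long chains. HADHA was higher at 0.71 ± 0.11 (adjusted p = 2.32e-10), a 1.63-fold difference, in the authors' deposited table. HADHB was not called in the authors' deposited table, at −0.15 ± 0.09 (adjusted p = 0.150). The intervals, 0.50 to 0.92 and −0.34 to 0.03, did not overlap, and the difference between the subunits could not be tested without values per sample. The span of HADHA overlaps that of GAREM2 by 13670 bases, and GAREM2 was lower in the authors' deposited table (−0.78 ± 0.26, adjusted p = 0.00605).

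HADHA (chromosome 2, 26190635 to 26244632) and HADHB (26244939 to 26290465) lie head to head on opposite strands, with 306 bases between their spans in GRCh38.p14. The 250 bases before the start of HADHA on the minus strand (chr2:26244633-26244882, RefSeq) are shown because 194 of them also lie in the window before HADHB. Capitals mark a GC box.
HADHA: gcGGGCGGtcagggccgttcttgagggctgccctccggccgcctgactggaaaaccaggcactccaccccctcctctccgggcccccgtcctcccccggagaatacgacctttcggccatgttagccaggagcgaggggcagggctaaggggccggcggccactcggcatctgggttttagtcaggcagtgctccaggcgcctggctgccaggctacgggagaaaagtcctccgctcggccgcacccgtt
The window before HADHA holds 1 GC box and that before HADHB holds 2. Whether this DNA bears on the fold change of either subunit was not tested.

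The remaining enzymes of the spiral went both ways. ECHS1, the hydratase for shorter chains, was not called at −0.31 ± 0.15 (adjusted p = 0.0689) in the authors' deposited table. HADH, the hydroxyacyl-CoA dehydrogenase for shorter chains, was higher at 0.40 ± 0.11 (adjusted p = 0.00130), and the mitochondrial thiolase gene ACAA2 was lower at −0.32 ± 0.09 (adjusted p = 0.00133) in the authors' deposited table. The peroxisomal thiolase gene ACAA1 had the lowest value of all called members, −1.01 ± 0.12 (adjusted p = 1.17e-15), a 2.01-fold difference, in the authors' deposited table. It is also the only lower member past 1 on the log2 scale, and its span overlaps that of DLEC1 by 1311 bases. The isomerases that prepare unsaturated chains for oxidation were ECI1, not called at −0.16 ± 0.12 (adjusted p = 0.245), and ECI2, higher at 0.24 ± 0.08 (adjusted p = 0.00678), in the authors' deposited table.

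**Figure D3:**
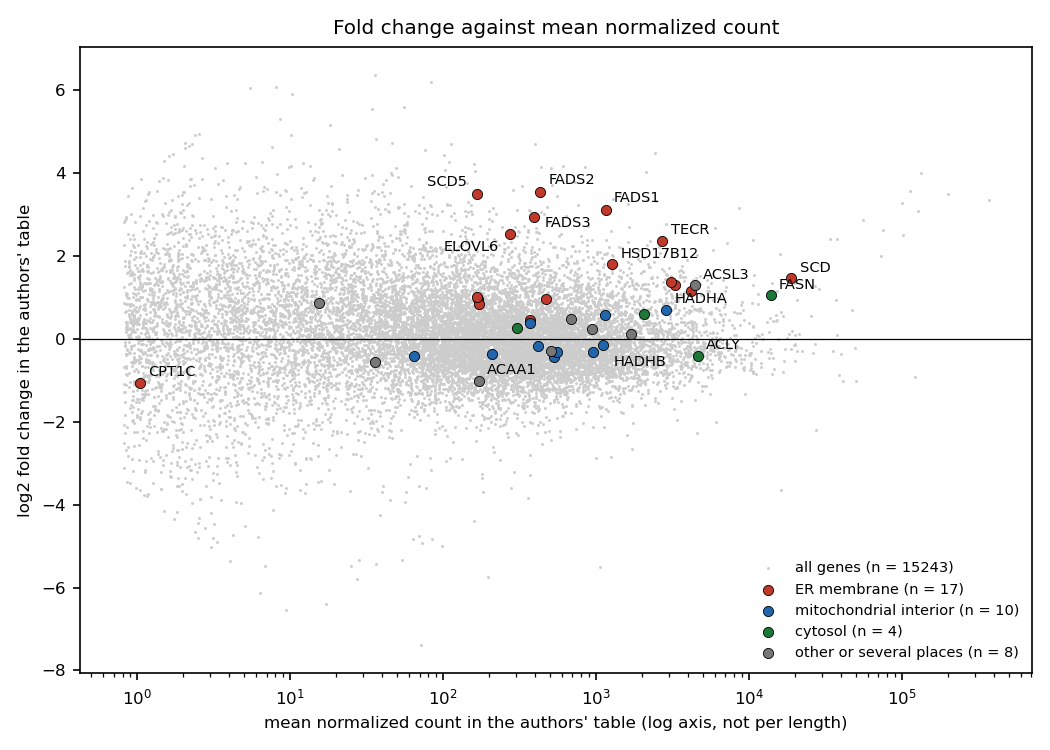
Log2 fold change (vertical axis) in the authors' deposited table against mean normalized count (horizontal log axis, not per length), with all 15243 genes in grey and the 39 fatty acid genes coloured by the place of the enzyme. The desaturase and elongation genes lie above 0 over counts from 166.1 (HACD2) to 18920 (SCD), and CPT1C, at 1.04, is the fatty acid gene with the fewest counts.

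Few of the members had low counts. Of the 39 genes, 35 lay at or above the median mean normalized count of 150.2 in the authors' deposited table, and all 25 higher members were among these 35. At that abundance 30.9% of all genes were higher and 40.9% lower. The genes below it were ACACB, ACSL5, ACADS and CPT1C, of which ACSL5 was called. The median SE was 0.12 for the members and 0.18 for all genes. Of the 39 annotated spans, 11 overlap that of another protein-coding gene. Of the 12 ER membrane genes without such an overlap, 11 were higher, with a median of 1.22 in the authors' deposited table.

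Other lipid genes, listed by function, were examined for comparison, and 71 of 78 were at hand. Of these 71, 26 were higher, 18 lower and 27 not called in the authors' deposited table, with a median of 0.17. The shares, 36.6% higher and 25.4% lower, lie near the 28.9% and 29.4% of all genes, against which the counts by class are also to be read. Among 13 regulators and citrate handling genes, 5 were higher and 3 lower. SREBF1, which encodes the SREBP transcription factor of fatty acid synthesis, was higher at 1.67 ± 0.11 (adjusted p = 4.19e-51), and SCAP, its escort from the ER, at 1.48 ± 0.10 (adjusted p = 5.76e-48) in the authors' deposited table. The other higher regulators, named after their values were seen, were MLXIPL (1.64 ± 0.41), MID1IP1 (1.07 ± 0.15) and PPARGC1A (1.45 ± 0.48) in the authors' deposited table. Mean normalized counts there were only 8.4 for MLXIPL and 26.1 for PPARGC1A. The lower ones, named likewise, were PPARG (−1.05 ± 0.32), MLYCD, which degrades malonyl-CoA (−0.42 ± 0.11), and the citrate carrier SLC25A1 (−0.30 ± 0.11) in the authors' deposited table. SLC25A1 and ACLY act in turn to bring citrate out of mitochondria and split it. Both were lower, but they were paired after their values were seen. At the stricter threshold of 0.01 SLC25A1 was not called. Both lie above the median mean normalized count, where 40.9% of all genes were lower.

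Uptake, binding and activation genes outside the members were higher in 6 of 14 and lower in 1, leaving out ELOVL3, which the list filed with them. ACSF2, an acyl-CoA synthetase of mitochondria, was higher at 2.11 ± 0.12 (adjusted p = 1.91e-68), while ACSF3, which activates malonate in mitochondria, was lower at −0.75 ± 0.11 (adjusted p = 1.36e-11) in the authors' deposited table. The separate mitochondrial pathway of fatty acid synthesis had none of 5 genes higher. Its 3 lower genes, named after their values were seen, were MECR (−0.62 ± 0.14), MCAT (−0.50 ± 0.17) and CBR4 (−0.47 ± 0.18) in the authors' deposited table.

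Further oxidation genes of mitochondria, which include branched and odd-chain steps, were higher in 10 and lower in 3 of 18. Their median was 0.41, against −0.24 for the 10 members inside mitochondria. HSD17B10, a dehydrogenase of branched chains, was among the lower at −0.55 ± 0.07 (adjusted p = 5.05e-13) in the authors' deposited table. The largest values in this class, named after they were seen, were PCCA (1.94 ± 0.16), ACAD10 (1.46 ± 0.18) and MMUT (1.46 ± 0.11) in the authors' deposited table, the first and last of which handle the propionyl-CoA of odd chains. Peroxisomal genes were higher in 3 and lower in 4 of 12, about the shares over all genes. Thioesterases, which release free fatty acids from CoA, were higher in 1 and lower in 4 of 8, with ACOT9 at −0.83 ± 0.09 (adjusted p = 9.09e-20) in the authors' deposited table.

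**Figure D4:**
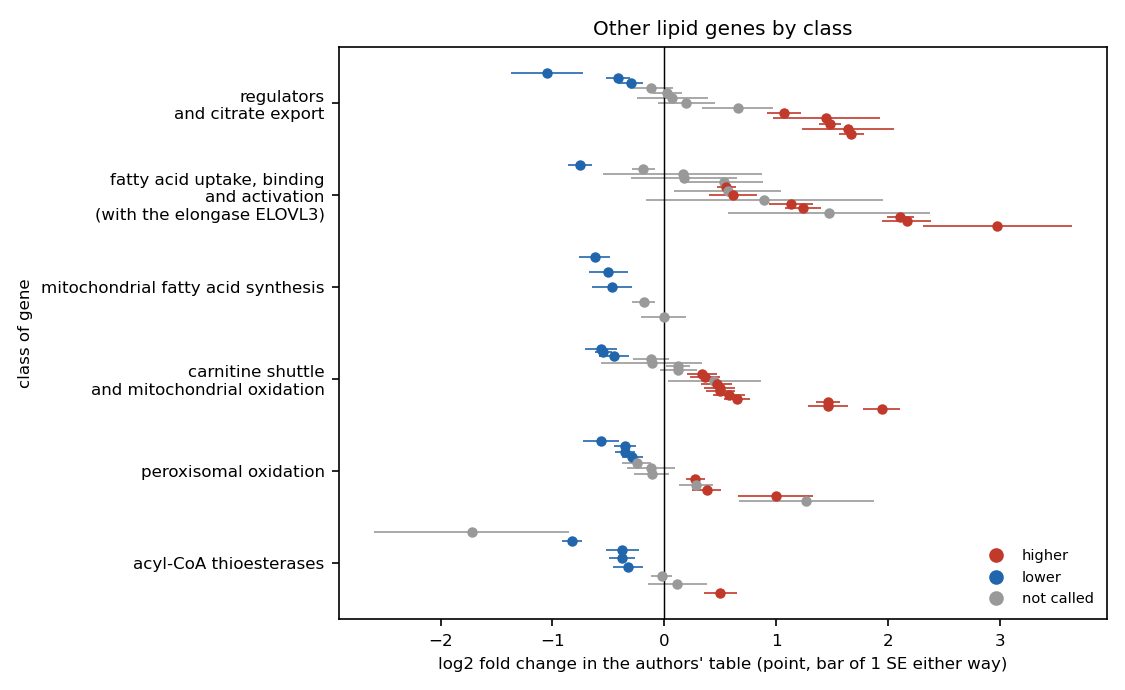
Log2 fold change in the authors' deposited table (horizontal axis, point with 1 SE either way) of 71 other lipid genes in 6 classes (vertical axis), coloured by whether they were called higher, lower or not called. The point furthest right is the elongase ELOVL3, at 2.97 ± 0.67, listed with the uptake genes, and no gene of mitochondrial fatty acid synthesis was higher.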

How the data were processed

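Ribo-seq was carried out in 3 shControl and 3 shALDH18A1 samples of NCI-H1299 cells, grouped by title. The submitters' processing notes name build hg38 and, with no role given, featureCounts, STAR 2.7.10a and fastp 0.23.2. The annotation, use of strand, footprint lengths, design formula and reference group were sought, and none is given in the sources used here. Per the file headers, the deposited mean is a normalized signal on a size-factor scale, and the deposited fold change and SE are taken as log2. The deposited statistic is a score equal to the fold change over its SE. The deposited p-values match a two-sided normal test of this score, and the adjusted ones match Benjamini-Hochberg to within 7.42e-06. No column of values per sample was present, so no count model was run.

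Of 15244 entries, 1 repeats a symbol and was dropped for its larger p. Calls used the deposited adjusted p under 0.05, and intervals of 95% the normal quantile times the SE. Members, lists and compartments were chosen with earlier results of these data known. All 39 members were named, as were ALDH18A1 and, of the other lipid genes, the 3 higher and 3 lower with the smallest p. Further lipid genes, ELOVL3 among them, were named outside this rule with their values known. Names, spans and overlaps came from RefSeq's GRCh38.p14, matched by Entrez ID, and promoter windows of 250 bases from RefSeq. Adjustment was tested on simulated data. Software was pandas 2.3.3, statsmodels 0.14.6, scipy 1.17.1, numpy 2.4.6 and matplotlib 3.10.9 under Python 3.11.15. Alternatives were other thresholds, fold minimums and adjustments, centring, filters on abundance, gene type and overlap, and the authors' marks. Whether samples came from separate cultures is not stated, so p-values may measure technical spread only.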

Additional observations from a re-analysis of the deposited data

How the results depend on the processing

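The count of 25 higher members went to 14 with a minimum of 1 on the log2 scale and to 14 under the authors' marks, against 15.2% of all genes marked up. The count of 7 lower members went to 3 at an adjusted p under 0.001, to 3 under Bonferroni adjustment, to 1 with a minimum of 1.5-fold, to 1 with a minimum of 1 on the log2 scale and to 1 under the authors' marks, against 9.24% of all genes marked down. Of the 71 other lipid genes, 44 were called in either direction, 62.0% against 58.4% of all genes. This count became 26 at an adjusted p under 0.001, 20 with a minimum of 1.5-fold and 15 under Bonferroni adjustment. It was 14 with a minimum of 1 on the log2 scale, where 3611 of all 15243 genes were called. At or above the median abundance it was 28 of 37, where 71.8% of all genes were called, and 16 carried the authors' marks. Shares of all genes at the 0.001, 1.5-fold and Bonferroni settings are not given here. The smaller counts of members and other lipid genes at those settings are therefore not read as particular to these genes. The median of the members, 0.61, was 0.34 over the 10 without an annotated overlap with any gene and 0.47 over the 28 without an overlap with a protein-coding gene, a setting chosen after seeing the data; both keep fewer members. The 16 higher ER membrane genes numbered between 12 and 16 under the same settings. At an adjusted p under 0.01 the calls of ACSS2, ACSL1 and ACSL5 ended, and under Bonferroni adjustment those of 10 members. Centring on the median of all genes, 0.02, changed no member's sign or call. No paired analysis was possible because the table holds a finished comparison without values per sample, and for the same reason no replicate could be left out.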
